A study of Mus musculus and Homo sapiens with 15 samples.

Results

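The 45 genes described here make up the core of the mammalian cell cycle and of DNA replication. They were taken by symbol from a list of such genes, which was drawn up with earlier results of these data known, and all 45 were found: 45 of 52340 genes in the table of the W/W mice, 45 of 56691 in the table of the grafted tumours and 45 of 61806, in human capitals, in the table of the U937 cells. By role, 9 license replication origins, 5 work at the replication fork, 4 supply nucleotides, 4 act at the G1/S boundary, 5 act in G1 and 18 act in mitosis or in the late cell cycle. The first 3 roles together are called the 18 S-phase genes, and they are set against the 18 mitotic genes.

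RNA was sequenced from 15 samples. W/W mice carry the p53 R282W mutation on both alleles, and 9 thymuses with T-cell lymphoma were collected from them at day 150 of life: 3 from mice given water, 3 from mice given arsenic trioxide (ATO) whose tumours were progressing and 3 from mice given ATO whose tumours were regressing. Every W/W group, controls included, carries the mutation, and the progressing and regressing groups were formed by outcome under the same treatment. A second system is a graft model in C57 mice, labelled wild type, with 2 tumours under PBS and 2 under ATO. The labels do not name the grafted cells, their p53 status or the age of the hosts. Last is U937, a human myeloid leukaemia line made to express p53 R282W, with 1 library under PBS and 1 under ATO. Dose and duration of ATO are not given in the labels, nor whether the W/W and graft libraries of a group come from separate animals. P-values measure the spread between these libraries.

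A cell that is about to divide first licenses its origins: the Mcm2 to Mcm7 proteins form the ring of the replicative helicase, which Cdc6 and Cdt1 load onto DNA in G1. Mcm10, Cdc45 and the GINS proteins then turn the helicase on, Rfc3 belongs to the complex that loads the Pcna clamp, and ribonucleotide reductase (Rrm1, Rrm2), thymidylate synthase (Tyms) and thymidine kinase (Tk1) feed the polymerases. D-type cyclins with Cdk4 and Cdk6 and E-type cyclins drive cells past the Rb checkpoint and release E2F factors, Cdkn1b (p27) restrains these kinases, and cyclins A and B with Cdk1 then carry the cell into mitosis. In thymus, the T-cell precursors divide rapidly before they become small resting CD4+ CD8+ (double-positive) cells.

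Transcription of S-phase genes is classically tied to E2F sites near the start of the gene, and that of mitotic genes to the CHR element together with CCAAT boxes. RefSeq promoters on GRCm38.p6 (250 bases before the start and 50 after it) were matched for 36 of the 45 mouse members by symbol. On either strand, an E2F motif (TTTCCCGC, TTTGGCGC, TTTCGCGC or TTTGCCGC) was present in 7 of 15 matched S-phase genes, or 46.67%, in 1 of 14 matched mitotic genes, and in 2.605% of all 27025 genes with a promoter of this length. The CHR letters (TTTGAA) were present in 10 of 14 mitotic genes, or 71.43%, in 2 of 15 S-phase genes, and in 20.23% of all genes. CCAAT was present in 92.86% of the mitotic, 73.33% of the S-phase and 41.06% of all genes. Matches can overlap one another, and they are a description of the letters and not of bound sites. Promoters of an S-phase pair (Mcm6, Rfc3) and a mitotic pair (Cdc20, Mki67) are shown as examples. They hold the motifs, and the levels of these genes differ between groups in the results that follow. Other members called there do not hold them: Mcm2, Mcm10, Tk1 and Tyms have no E2F motif, and Cenpe has no CHR letters. Capitals mark E2F motifs in the S-phase pair and CHR letters in the mitotic pair, each printed 5′ to 3′ on the strand of the gene.
Mcm6 (chr1:128359656-128359955, - strand): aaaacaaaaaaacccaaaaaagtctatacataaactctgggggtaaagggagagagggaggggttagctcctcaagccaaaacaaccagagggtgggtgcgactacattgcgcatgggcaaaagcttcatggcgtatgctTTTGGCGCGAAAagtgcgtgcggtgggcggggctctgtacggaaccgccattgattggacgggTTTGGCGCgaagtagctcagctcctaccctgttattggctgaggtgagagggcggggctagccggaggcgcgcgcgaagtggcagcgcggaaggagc
Rfc3 (chr5:151651159-151651458, - strand): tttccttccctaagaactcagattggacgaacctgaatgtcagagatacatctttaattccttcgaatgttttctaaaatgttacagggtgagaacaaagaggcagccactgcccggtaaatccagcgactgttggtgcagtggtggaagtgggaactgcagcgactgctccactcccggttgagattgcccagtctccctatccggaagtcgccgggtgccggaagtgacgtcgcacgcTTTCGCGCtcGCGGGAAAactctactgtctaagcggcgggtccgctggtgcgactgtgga
Cdc20 (chr4:118437294-118437593, - strand): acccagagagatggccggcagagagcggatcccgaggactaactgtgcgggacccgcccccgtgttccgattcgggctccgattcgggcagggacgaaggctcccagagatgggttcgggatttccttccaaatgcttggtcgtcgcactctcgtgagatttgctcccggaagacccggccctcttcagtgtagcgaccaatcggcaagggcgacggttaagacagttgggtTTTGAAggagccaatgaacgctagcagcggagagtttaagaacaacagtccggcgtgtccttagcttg
Mki67 (chr7:135716330-135716629, - strand): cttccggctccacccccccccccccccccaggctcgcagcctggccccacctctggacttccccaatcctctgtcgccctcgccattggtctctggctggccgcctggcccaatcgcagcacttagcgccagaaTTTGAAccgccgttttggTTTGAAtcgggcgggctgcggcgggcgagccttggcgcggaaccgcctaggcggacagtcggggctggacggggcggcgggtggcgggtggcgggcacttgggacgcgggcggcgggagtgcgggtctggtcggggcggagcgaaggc

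Total counts were between 12800367 and 17872972 per library, and all 45 members passed the filter on low counts in both mouse tables. Values are CPM (counts scaled to a common library size) with TMM-adjusted library sizes in the mouse tables and plain library totals in U937. Water replicate 2 and progressing replicate 2 had low TMM factors (0.748 and 0.794, against 1.03 to 1.16 in the other W/W libraries). Mitochondrial genes took 2.55%, 3.79% and 2.755% of counts with water, 4.70%, 8.83% and 4.86% with progression and 2.08%, 2.96% and 8.48% with regression, so that progressing and water did not overlap. The libraries also differ in other cell types. Summed CPM of 9 T-cell markers was 1548 to 2010 in water, 2523 to 3396 in progressing and 2761 to 4637 in regressing libraries, with none of them at 0. The 8 markers of double-positive thymocytes summed to 284 to 373 CPM in water, 2127 to 3195 in progressing and 4370 to 8860 in regressing libraries (Ptcra was at 0 in water replicate 2 and Rag2 in water replicate 3), and 7 thymic epithelium markers to 110.1 to 776, 39.2 to 96.5 and 1462 to 1669 CPM. The 7 B-cell markers summed to 268 to 3426 CPM in water, against 4.12 to 84.1 in progressing and 117 to 207 in regressing libraries, with Ms4a1 and Blk at 0 in progressing replicate 1. The 8 myeloid markers summed to 1753 to 2465 CPM in water, 311 to 1369 in progressing and 524 to 998.5 in regressing libraries. The 7 fibroblast markers summed to 335 to 944 CPM, 786 to 1336 and 131 to 439 in the same order, with none of either list at 0. In such bulk tissue, fewer cells of a type and less RNA per cell cannot be told apart, and the part of these markers and of the mitochondrial share in the results below was not tested.

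Levels were compared between genes per length (CPM per kb of exonic sequence). In the water lymphomas Pcna, the sliding clamp, had the highest mean at 211.5 ± 78.5 CPM per kb (SD, n = 3), followed by Cdk4 at 112 ± 50.5 and Mcm6 at 97.5 ± 21.5. The ranges of 1 SD of neighbours in this order overlapped. Cdk6 (8.42 ± 2.12), Cenpe (8.52 ± 1.05) and Ccne2 (8.72 ± 0.151 CPM per kb) were lowest and did not differ beyond their spread. In the PBS grafts Pcna again led (192 ± 3.24 CPM per kb, n = 2), while Ccnd2 was last at 0.369 ± 0.0578. In U937 under PBS, TPX2 (262 CPM per kb) and PCNA (184) led and CCNE1 (4.05) was lowest.

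Members moved in both directions, and by role. Regressing thymuses had less RNA of 6 of the 18 S-phase genes than water lymphomas and more of Ccnd3, E2f2 and Cdkn1b, while progressing thymuses held almost no Ccnd2 and had more of Ccne2, Bub1b and Cenpe. Members are called changed where edgeR's quasi-likelihood test gave a Benjamini-Hochberg adjusted p under 0.05 over all 18119 genes tested, and groups are said not to overlap where every library of 1 group lies above every library of the other. Regressing against water called 3 members higher and 7 lower, where 3.13% and 4.57% of all genes tested were called. Without overlap, 6 members were higher and 21 lower, against 19.3% and 20.9% of all genes. Of the 18 S-phase genes, 6 passed and 14 separated, all lower. Progressing against water called 3 higher and 2 lower, against 4.77% and 7.13%, with 7 and 3 members without overlap, against 11.9% and 14.7%. The calls there are near the shares of all genes, and the members lower without overlap are below theirs. Regressing against progressing called 2 higher and 10 lower, against 6.45% and 6.18%, with 3 and 25 members without overlap, against 21.4% and 20.6%. These 3 comparisons share libraries, and since outcome formed the groups, treatment and outcome cannot be told apart in those with water. Fold changes are given on the log2 scale with their SE unless written as a fold.

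**Figure D1:**
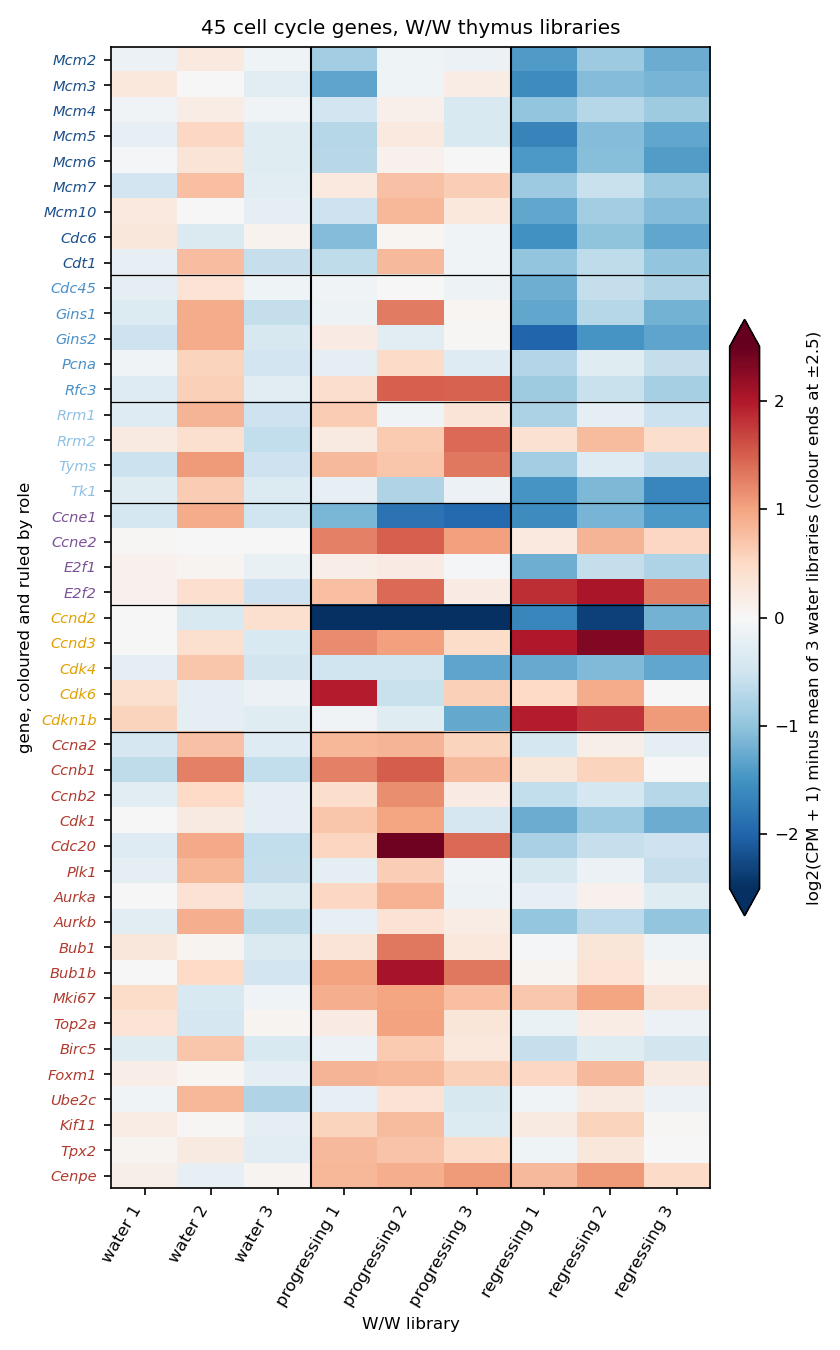
Level of each of the 45 genes in each W/W library as log2(CPM + 1) minus the mean of the 3 water libraries (colour, ends at ±2.5), with genes in rows ordered by role and libraries in columns by group. The licensing rows are blue in all 3 regressing libraries, and Ccnd2 is below the end of the scale in all 3 progressing libraries.

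All 9 licensing genes were lower in each regressing library than in every water library, with log2 fold changes of -1.39 to -0.87 and a median of -1.19. Of all 18119 genes tested, 20.9% did not overlap in this direction and the median was -0.12. The adjusted p passed 0.05 for Mcm2, Mcm5, Mcm6 and Cdc6. Mcm2 measured 252, 327 and 258 CPM with water, 151, 257 and 249 CPM with progression and 104, 147 and 116 CPM with regression. Its regressing libraries lie below all others, 2.28-fold under water (-1.19 ± 0.30 (SE), adjusted p = 0.0425). Mcm6 measured 437, 563 and 365 CPM with water, 276, 485 and 448 CPM with progression and 164, 212 and 171 CPM with regression. It was 2.49-fold lower in regressing than in water libraries (-1.32 ± 0.32 (SE), adjusted p = 0.0365) and 2.21-fold lower than in progressing ones (-1.14 ± 0.32 (SE), adjusted p = 0.0433).

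Mcm5, another helicase subunit, measured 244, 404 and 228 CPM with water, 171, 336 and 215 CPM with progression and 87.5, 132 and 114 CPM with regression, and its difference between regressing and water was -1.39 ± 0.36 (SE), adjusted p = 0.0431. The loader Cdc6 measured 135, 85.4 and 116 CPM with water, 51.3, 114 and 104 CPM with progression and 37.8, 54.6 and 44.1 CPM with regression. Regressing libraries lay under the water libraries and overlapped progressing replicate 1 in level (-1.30 ± 0.35 (SE), adjusted p = 0.0485 against water). In the fit of all 9 W/W libraries Mcm7 and Mcm10 passed only against the progressing group. DESeq2 and the fit of the compared groups alone also called Mcm10 in regressing against water. Mcm7 measured 238, 555 and 275 CPM with water, 392, 552 and 508 CPM with progression and 177, 225 and 175 CPM with regression, 2.52-fold lower in regressing than in progressing libraries (-1.33 ± 0.37 (SE), adjusted p = 0.0406). Its gene overlaps Cops6 and Ap4m1 on the other strand, and reads of such overlapping genes cannot be told apart, as no source used here says whether counting used the strand. Mcm10, which helps to start the helicase, measured 84.9, 72.5 and 60.3 CPM with water, 49.9, 128 and 86.3 CPM with progression and 28.5, 38.9 and 33.4 CPM with regression (-1.39 ± 0.36 (SE), adjusted p = 0.0341 against progressing). Mcm3, Mcm4 and Cdt1 passed in no W/W comparison in the fit of all 9 libraries. In regressing against water DESeq2 called Mcm3 and Mcm4. Mcm3 was also called there with no filter and in the fit of the compared groups alone. Between progressing and water no licensing gene separated the groups. Of all 18 S-phase genes there 0 were called, 1 had an unadjusted p under 0.05, and DESeq2 called Rfc3. Among the licensing genes the larger values there were 0.44 for Mcm7 and -0.35 for Mcm2.

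Among the fork genes, all 5 had negative values in the regressing group against water and 4 of 5 separated the groups, but Gins2 alone passed the test. Gins2, a GINS subunit of the active helicase, measured 22.8, 64.1 and 24.7 CPM with water, 38.5, 26.9 and 33.7 CPM with progression and 7.59, 11.3 and 12.8 CPM with regression. The highest regressing library was below the lowest library of the other groups, 3.52-fold under water (-1.81 ± 0.46 (SE), adjusted p = 0.0414) and 3.12-fold under progressing (-1.64 ± 0.46 (SE), adjusted p = 0.0425). Without water replicate 2, the highest library, the value against water was -1.08 (adjusted p = 0.119). The gene overlaps Gse1 on the other strand. Rfc3, the clamp loader subunit, measured 42.01, 80.3 and 44.04 CPM with water, 72.4, 150.4 and 149.6 CPM with progression and 28.3, 35.7 and 29.3 CPM with regression. It was 3.99-fold lower in regressing than in progressing libraries (-1.996 ± 0.38 (SE), adjusted p = 0.0159), while progressing replicates 2 and 3 lay above all water libraries and replicate 1 did not. Progressing against water gave 1.16 ± 0.37 (SE), adjusted p = 0.0664 for Rfc3 and 0.41 ± 0.51 (SE), adjusted p = 0.655 for Gins1. Cdc45, Gins1 and Pcna passed in no W/W comparison in the fit of all 9 libraries. Gins1 was called in regressing against progressing by DESeq2, with no filter, with the replicate block and in the fit of the compared groups alone. Pcna overlapped in all of them, between 291 and 716.5 CPM.

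Genes of nucleotide supply were less uniform. Tk1, the salvage kinase, measured 100.4, 195 and 98.8 CPM with water, 108, 73.9 and 112 CPM with progression and 44.4, 56.97 and 39.7 CPM with regression, 2.79-fold lower in regressing than in water libraries (-1.48 ± 0.35 (SE), adjusted p = 0.0326). Tyms measured 59.5, 183 and 60 CPM with water, 154, 140.5 and 219 CPM with progression and 47.4, 68.95 and 57.96 CPM with regression, 2.94-fold lower in regressing than in progressing libraries (-1.56 ± 0.45 (SE), adjusted p = 0.0463). It overlapped between regressing and water. Rrm2, the small subunit of ribonucleotide reductase, was the exception among the 18 S-phase genes in regressing against water, with a positive value of 0.48 that did not pass the test. Its libraries measured 156, 176 and 85.99 CPM with water, 155, 211 and 357 CPM with progression and 174, 229.8 and 180.3 CPM with regression. Rrm1 had -0.64 and overlapped. Progressing against water gave 0.79 for Rrm2 and 0.76 for Tyms, neither past the test.

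At the G1/S boundary, paired family members went in different directions. Cyclin E1 (Ccne1) measured 36.6, 96.7 and 35.2 CPM with water, 22.3, 13.2 and 12.2 CPM with progression and 16.1, 21.8 and 17.9 CPM with regression. It was 3.53-fold lower in progressing than in water libraries (-1.82 ± 0.46 (SE), adjusted p = 0.0314), and in regressing libraries -1.60 ± 0.46 (SE), adjusted p = 0.0581. Water replicate 2 is 96.7 CPM, well above the other water libraries, and without it the progressing value was -1.15 (adjusted p = 0.0745). Cyclin E2 (Ccne2) measured 31.1, 30.3 and 30.1 CPM with water, 74.8, 87.1 and 63.4 CPM with progression and 36.1, 55.9 and 44.2 CPM with regression. The 3 groups did not overlap, and it was 2.46-fold higher in progressing than in water libraries (1.30 ± 0.28 (SE), adjusted p = 0.018). Ccne2 overlaps Ints8 on the other strand. E2f2, an activator E2F, measured 90.3, 112 and 58.03 CPM with water, 142, 226 and 96.1 CPM with progression and 303, 349 and 203 CPM with regression, 3.29-fold higher in regressing than in water libraries (1.72 ± 0.40 (SE), adjusted p = 0.0309). E2f1 passed edgeR's test in no comparison, though DESeq2 called it lower in regressing against water and against progressing. It was -0.89 in regressing against water and -0.996 against progressing, with no overlap in either. E2f2 was 0.88 in regressing against progressing, with overlap.

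G1 genes held the biggest difference among the 45 members in the W/W thymuses. Cyclin D2 (Ccnd2, ENSMUSG00000000184, GRCm38 chr6:127125162-127152193, - strand) measured 278, 214.5 and 371 CPM with water, 4.61, 4.05 and 7.63 CPM with progression and 90.3, 55.2 and 123 CPM with regression. It was 52.9-fold lower in progressing than in water libraries (-5.72 ± 0.46 (SE), adjusted p = 0.000467), 3.22-fold lower in regressing than in water libraries (-1.69 ± 0.38 (SE), adjusted p = 0.0294) and 16.4-fold higher in regressing than in progressing libraries (4.04 ± 0.43 (SE), adjusted p = 0.00308). None of the 3 groups overlapped. The calls with the progressing group held in all 6 fits that left out 1 library, with log2 values of -6.04 to -5.51 against water. Cyclin D3 (Ccnd3), the other D-type cyclin of the list, measured 131, 174 and 100.3 CPM with water, 302, 269 and 182 CPM with progression and 529, 660.2 and 415 CPM with regression. Here the order was water, progressing, regressing, without overlap, and regressing was 3.96-fold above water (1.98 ± 0.34 (SE), adjusted p = 0.0134). Progressing against water did not pass (0.89 ± 0.33 (SE), adjusted p = 0.106). Nor did regressing against progressing (1.09 ± 0.335 (SE), adjusted p = 0.0563). Ccnd3 was called in the latter by DESeq2, with RLE or library-total scaling, with no filter and with the replicate block. The fits of the compared groups alone and without both libraries of low TMM factor also called it. Ccnd3 overlaps Bysl on the other strand.

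Cdkn1b, the p27 inhibitor, measured 165, 94.7 and 90.3 CPM with water, 106, 90.8 and 45.9 CPM with progression and 440.5, 395 and 235 CPM with regression. All regressing libraries lay above all others, 3.06-fold over water (1.61 ± 0.41 (SE), adjusted p = 0.041) and 4.40-fold over progressing (2.14 ± 0.42 (SE), adjusted p = 0.0167). Cdk4 was lower in every ATO library than in every water library. It measured 291, 550.5 and 247 CPM with water, 240.5, 241 and 137 CPM with progression and 141, 158 and 138 CPM with regression. In the fit of all 9 W/W libraries it passed in the contrast of both ATO groups with water alone (-1.06 ± 0.31 (SE), adjusted p = 0.0491). Regressing against water gave -1.31 ± 0.37 (SE), adjusted p = 0.055 for Cdk4, which DESeq2 and the fit with no filter called there. Cdk6 passed in no W/W comparison and ranged from 78.8 to 455 CPM within the progressing group.

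**Figure D2:**
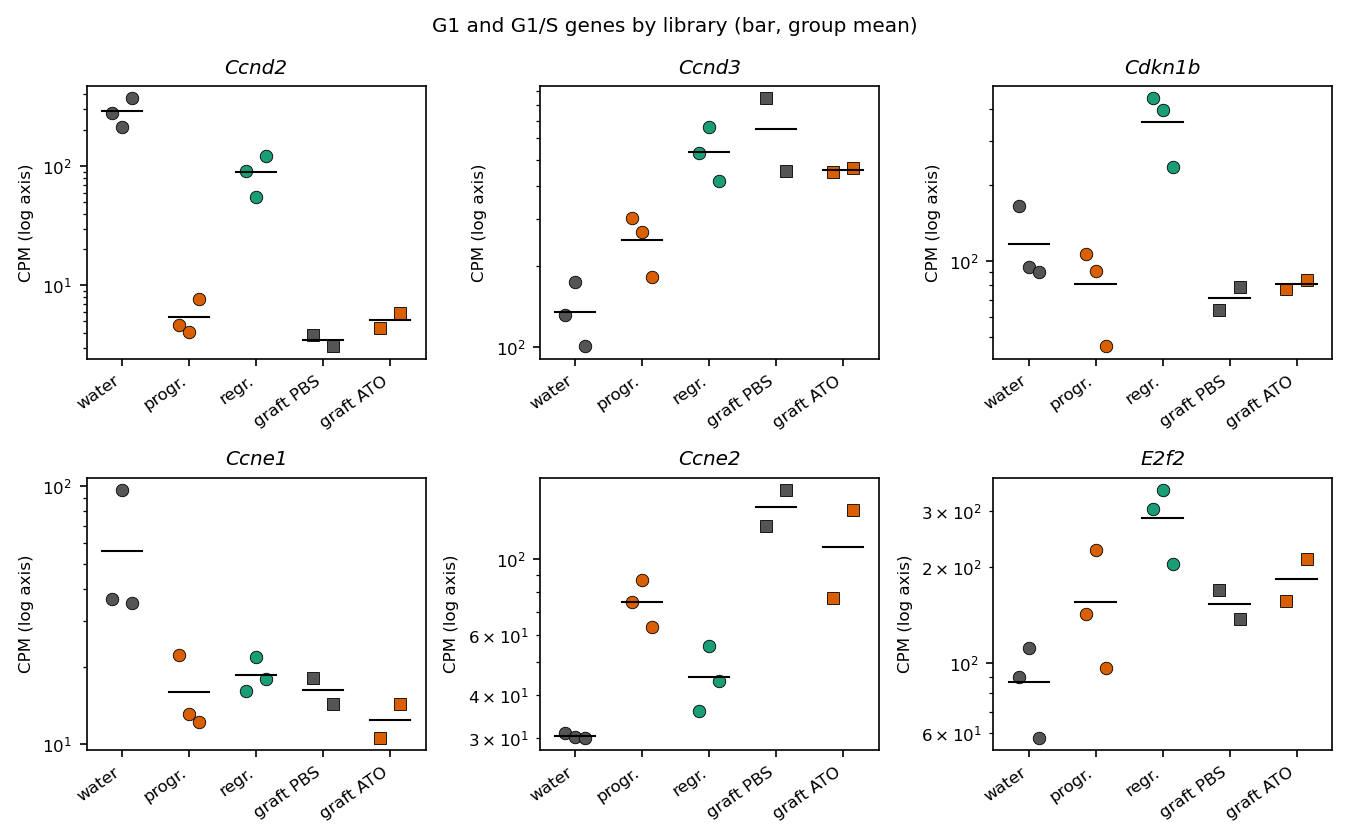
CPM (log axis, with its own range in each panel) of 6 G1 and G1/S genes in each W/W and graft library; points are libraries and bars are group means. Ccnd2 sits between 214.5 and 371 CPM in water and at most at 7.63 CPM in the progressing libraries and in the grafts.

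None of the 18 mitotic genes passed the test in regressing against water, with a median of -0.10, 8 positive and 10 negative. The 2 larger values were -1.15 ± 0.36 (SE), adjusted p = 0.0754 for Cdk1 and -1.03 ± 0.40 (SE), adjusted p = 0.12 for Aurkb, both without overlap. Mki67, the proliferation marker, measured 679.6, 383 and 469 CPM with water, 933, 983 and 837 CPM with progression and 796, 986 and 624 CPM with regression. Its regressing libraries overlap those of water (0.65 ± 0.33 (SE), adjusted p = 0.225). Top2a likewise overlapped (-0.06). At an unadjusted p under 0.05 there were 3 mitotic genes, and DESeq2 called Cdk1 and Cenpe. Cdk1 was also called in the fit of the compared groups alone.

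In progressing against water, 16 of 18 mitotic genes had positive values, with a median of 0.64, and 2 passed the test. Bub1b, a kinase-like protein of the spindle checkpoint, measured 126, 179 and 90.6 CPM with water, 256, 533 and 320.1 CPM with progression and 134, 161 and 132 CPM with regression. All progressing libraries were above all others, 2.80-fold over water (1.49 ± 0.36 (SE), adjusted p = 0.0268). Cenpe, a kinetochore motor, measured 80.4, 63.2 and 76.6 CPM with water, 130.5, 138 and 154 CPM with progression and 129.5, 154 and 102 CPM with regression, 1.92-fold higher than in water (0.94 ± 0.26 (SE), adjusted p = 0.0434). Its regressing libraries were also above water without overlap (0.81 ± 0.26 (SE), adjusted p = 0.0805). Mki67, Foxm1 and Tpx2 separated progressing from water without passing (0.85, 0.76 and 0.66). Cdc20 had the largest mitotic value there (1.499 ± 0.52 (SE), adjusted p = 0.0859), with overlap, and was called higher by DESeq2, with library totals, with no filter and with the length offset.

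In regressing against progressing, 17 of 18 mitotic genes had negative values, and 4 passed, all lower. Cdc20, the activator of the anaphase-promoting complex, measured 109, 264 and 89.3 CPM with water, 198, 739.8 and 369 CPM with progression and 77.7, 92.05 and 94.9 CPM with regression, 4.94-fold lower in regressing libraries (-2.30 ± 0.54 (SE), adjusted p = 0.0254). Progressing replicate 2 is the highest library, and without it the value was -1.61 (adjusted p = 0.0619). Cdc20 overlaps Elovl1 on the other strand. Cdk1, the mitotic kinase, measured 176, 208 and 151 CPM with water, 288, 354 and 132 CPM with progression and 74.3, 93.5 and 73.95 CPM with regression (-1.68 ± 0.37 (SE), adjusted p = 0.0216 against progressing). Its partner cyclin B2 (Ccnb2) measured 117, 199.9 and 121 CPM with water, 191, 318 and 163 CPM with progression and 92.7, 105 and 85.8 CPM with regression (-1.25 ± 0.34 (SE), adjusted p = 0.0399 against progressing), and a processed copy of this gene, Ccnb2-ps, held at most 141 counts in a library. Bub1b had -1.38 ± 0.36 (SE), adjusted p = 0.036. The other mitotic members passed in no W/W comparison in the fit of all 9 libraries. They are Ccna2, Ccnb1, Plk1, Aurka, Aurkb, Bub1, Mki67, Top2a, Birc5, Foxm1, Ube2c, Kif11 and Tpx2, and their values in regressing against progressing ran from -1.01 (Aurkb) to 0.06 (Ube2c). In that comparison the fit of the compared groups alone called Ccna2 and Aurkb. Without water replicate 2, Ccna2 and Ccnb1 were called in progressing against water, and Ccnb1 for both ATO groups. Leaving out both libraries of low TMM factor gave the same calls of these genes. DESeq2 called Foxm1 for both ATO groups against water.

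Both ATO groups together against water called 4 members higher and 3 lower, against 3.57% and 7.3% of all genes. Higher were Ccnd3 (1.44 ± 0.31 (SE), adjusted p = 0.0169), E2f2 (1.28 ± 0.35 (SE), adjusted p = 0.0438), Ccne2 (0.94 ± 0.25 (SE), adjusted p = 0.0397) and Cenpe (0.87 ± 0.24 (SE), adjusted p = 0.0396). Lower were Ccnd2 (-3.71 ± 0.32 (SE), adjusted p = 0.000792), Ccne1 (-1.71 ± 0.38 (SE), adjusted p = 0.0186) and Cdk4. Without water replicate 2 the value of Ccne1 was -1.01 (adjusted p = 0.0925), and that of Cdk4 was -0.59 (adjusted p = 0.192). E2f2 overlapped between the groups, since progressing replicate 3 lay within the water range. No S-phase gene passed, with 8 at an unadjusted p under 0.05 and Tk1 called by DESeq2. The larger values were -0.84 for Mcm5 and -0.81 for Cdc6, -0.99 for Gins2 and -0.48 for Cdc45, and -0.95 for Tk1 and 0.64 for Rrm2. This contrast uses the libraries of the comparisons above.

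Most of these calls need all 9 libraries. In regressing against water, the 10 members called became 4 without water replicate 1, 3 without water replicate 2, 6 without water replicate 3, 0 without regressing replicate 1 or 2, and 3 without regressing replicate 3. In progressing against water the 5 became 2 without water replicate 1 or 3, 9 without water replicate 2, 6 without progressing replicate 1, and 2 without progressing replicate 2 or 3. In regressing against progressing the 12 became 11, 3 and 2 without progressing replicates 1, 2 and 3, and 1, 1 and 2 without regressing replicates 1, 2 and 3. For both ATO groups the 7 became 2, 4 and 3 without water replicates 1, 2 and 3, 4, 6 and 4 without the progressing ones, and 2, 1 and 5 without the regressing ones. No called member changed direction in these fits. In regressing against water Ccnd3 held its call in 4 of 6 fits and no other member in more than 2. In progressing against water Ccnd2 held in 6, Ccne2 in 4, Ccne1 in 3, Bub1b in 2 and Cenpe in 0 of 6. In regressing against progressing Ccnd2 held in 6 and Cdkn1b in 3, and no other member in more than 2. Without both libraries of low TMM factor, an alternative chosen after seeing the data, the call was lost for Mcm2, Mcm6, Gins2 and Cdkn1b in regressing against water and for Ccne1 and Cenpe in progressing against water. A fit on the progressing and water libraries alone called Ccnd2 and no other member. A fit of all ATO libraries as 1 group against water called Ccne1 alone, with -2.60 (adjusted p = 0.164) for Ccnd2. With library totals in place of TMM factors, 2 members in place of 7 were called lower in regressing against water. The median of all genes there was 0.09 in place of -0.12, and its part in the lost calls was not tested.

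Set against each other, the S-phase genes were low relative to the mitotic genes in the ATO-treated thymuses. The mean log2(CPM + 1) of the 18 S-phase genes minus that of the 18 mitotic genes was -0.10, 0.09 and 0.02 with water, -0.74, -0.68 and -0.15 with progression and -0.98, -0.83 and -0.72 with regression. Every ATO library was below every water library. In regressing libraries the S-phase mean was 6.18 ± 0.23 (SD, n = 3) against 7.12 ± 0.43 in water, with mitotic means of 7.03 ± 0.20 and 7.11 ± 0.37. In progressing libraries the S-phase mean was 7.22 ± 0.31 and the mitotic mean 7.75 ± 0.34. As differences of the median log2 fold change, S-phase minus mitotic was -0.95 for regressing and -0.70 for progressing against water, and -0.41 between them. The progressing value was -0.43 without water replicate 2. The members were chosen for this contrast of roles, so no p is given.

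**Figure D3:**
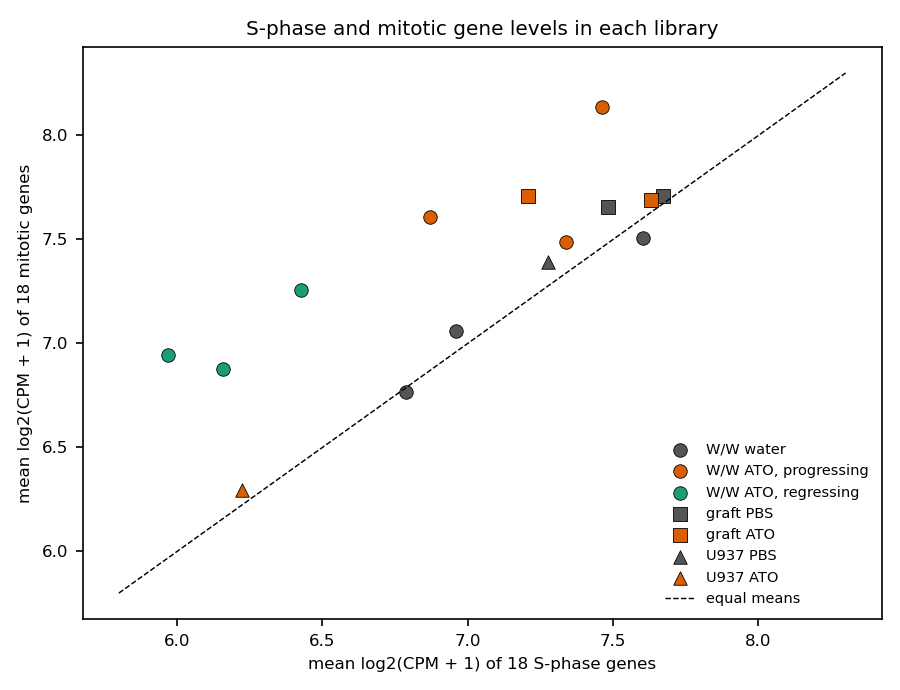
Mean log2(CPM + 1) of the 18 S-phase genes (x axis) against that of the 18 mitotic genes (y axis), 1 point per library, with colour and shape for the group and a dashed line of equal means. Water libraries lie on or near the line, regressing libraries lie to the left of it at S-phase means of 5.97 to 6.43, and both U937 libraries lie near the line at different heights.

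Other genes of the pathway that are not among the 45 were counted in lists, given in this and the next paragraph. The shares of all genes tested to set beside these counts are, for regressing against water, 3.13% called higher, 4.57% called lower and 20.9% lower without overlap. They are 4.77% called higher and 7.13% lower for progressing against water, and 6.45% and 6.18% for regressing against progressing. Of 38 other replication genes, 0 were called higher and 8 lower in regressing against water, and 27 were lower without overlap. The largest changes were Pold2 (-2.44 on the log2 scale, from 113 to 20.9 CPM), Tipin (-1.81 on the log2 scale, from 145 to 41.2 CPM) and Chaf1b (-1.51 on the log2 scale, from 58.7 to 20.6 CPM). Pold2 is a subunit of DNA polymerase delta, Tipin protects stalled forks and Chaf1b places histones on new DNA. Against progressing 17 of 38 were called lower and 0 higher, led by Chaf1b (-2.40 on the log2 scale, from 108 to 20.6 CPM). In progressing against water 0 of 38 passed in either direction, with 4 at an unadjusted p under 0.05. Of 48 other mitosis genes, 7 were called higher and 0 lower in progressing against water, among them Ckap2 (1.80 on the log2 scale, from 49.8 to 173 CPM), Kif15 (1.76 on the log2 scale, from 120.0 to 406 CPM) and Spc25 (1.596 on the log2 scale, from 41.5 to 126 CPM). In regressing against water there was 1 higher, Cenpf (1.14 on the log2 scale, from 61.9 to 136 CPM), and 1 lower, Cdc25b (-1.50 on the log2 scale, from 200.4 to 70.8 CPM), and against progressing 0 higher and 10 lower.

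Of 7 other inhibitors of cyclin-dependent kinases, 2 were called lower in regressing against water: Cdkn2a (-4.90 on the log2 scale, from 256 to 8.59 CPM) and Cdkn2b (-3.48 on the log2 scale, from 11.3 to 0.997 CPM). Cdkn2a encodes p16 and p19Arf, which restrain Cdk4 and Mdm2. Against progressing both were also lower, with Cdkn2a (-4.70 on the log2 scale, from 223 to 8.59 CPM). Cdkn1a (p21), a p53 target, was 2.15 in progressing against water (adjusted p = 0.0936) and -0.39 in regressing against water. In the list of 16 tested Rb, E2F and Myc genes, Myc fell in both outcomes against water: Myc (-3.35 on the log2 scale, from 455 to 44.7 CPM) in regressing and Myc (-2.82 on the log2 scale, from 455 to 64.5 CPM) in progressing libraries. Mycn had larger values that did not pass, -5.97 in progressing against water (26.02 to 0.42 CPM, adjusted p = 0.0602, with overlap) and 3.81 in regressing against progressing (adjusted p = 0.154). Myc was the 1 lower call against water in each outcome, beside 0 and 3 higher calls (Rbl1, E2f8 and Tfdp2 in progressing libraries). In regressing against progressing, 1 gene of this list was called higher and 0 lower. Of 15 checkpoint genes, Ccng2 (2.40 on the log2 scale, from 55.6 to 292 CPM) was the 1 call in regressing against water. In progressing against water Gadd45a (2.10 on the log2 scale, from 9.81 to 42.2 CPM) and Ccng2 (1.5 on the log2 scale, from 55.6 to 157 CPM) were higher and 0 lower, and 6 were lower and 0 higher in regressing against progressing, led by Ccng1 (-1.92 on the log2 scale, from 364 to 95.9 CPM).

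In the grafted tumours calls were few. Of the 45 members, 3 were called higher and 1 lower under ATO, where 7.37% and 6.57% of the 15468 genes tested were called, and 7 were higher and 15 lower without overlap, where 31.7% and 30% of all genes were. Neither share of calls is above that of all genes. Mki67 (chr7:135689784-135716361 on GRCm38, - strand) measured 275 and 321 CPM under PBS and 885 and 834 CPM under ATO, a 2.89-fold rise (1.53 ± 0.21 (SE), adjusted p = 0.00376) that was called in all 4 fits without 1 graft, at 1.41 to 1.62. Each of these fits has 1 library in an arm and assumes that it varies like the 2 of the other arm. Cenpe measured 82.7 and 102 CPM under PBS and 186 and 180.5 CPM under ATO (0.99 ± 0.20 (SE), adjusted p = 0.0137). Cdk6, a partner of the D-type cyclins, measured 211 and 293 CPM under PBS and 439 and 517 CPM under ATO (0.92 ± 0.22 (SE), adjusted p = 0.0228). Its sister kinase Cdk4 fell, from 431 and 374 CPM to 231 and 244 CPM (-0.76 ± 0.20 (SE), adjusted p = 0.0284), and its gene overlaps Tspan31 on the other strand. Without PBS graft 1 the calls of Cdk4, Cdk6 and Cenpe were lost, with 0.70 (adjusted p = 0.177) for Cdk6, and the call of Cdk4 was lost without ATO graft 1.

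No S-phase gene was called in the grafts, and 2 had an unadjusted p under 0.05. The larger values were 0.39 for Cdc6 and -0.35 for Mcm5, -0.49 for Gins2 and -0.49 for Pcna, and -0.61 for Tyms and -0.36 for Tk1. DESeq2 called Tyms lower. At G1/S the larger values were -0.39 for Ccne2 and -0.38 for Ccne1, with no call. Ccnd2, at 214.5 to 371 CPM in the water lymphomas, measured 3.85 and 3.08 CPM under PBS and 4.42 and 5.84 CPM under ATO. The 2 tables were normalized separately, so these levels stand side by side only. Of the 18 mitotic genes 5 were higher and 8 lower without overlap, where 31.7% and 30% of all genes were. Their median was 0.02. Mki67, Cenpe, Foxm1, Top2a and Tpx2 were higher, and Ccna2, Ccnb1, Ccnb2, Cdk1, Cdc20, Aurka, Birc5 and Ube2c lower.

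These mitotic values in the grafts moved with gene length. Over the 18 genes, Spearman's rho between log2 fold change and exonic length was 0.71 (all from the same 4 libraries, given as a description). Over all 15468 genes it was 0.30, and the median log2 fold change ran from -0.28 in the shortest to 0.39 in the longest of 5 length classes. With an offset for length, an alternative chosen after seeing the data, the value was 1.15 (adjusted p = 0.0175) for Mki67, 0.69 (adjusted p = 0.0452) for Cenpe, 0.37 (adjusted p = 0.219) for Cdk6 and -0.67 (adjusted p = 0.0505) for Cdk4, so that Cdk6 and Cdk4 were no longer called. The share of mitochondrial counts was 0.521% and 1.02% under PBS and 5.98% and 4.03% under ATO. T-cell markers summed to 5964 to 6878 CPM under PBS and 3321 to 4831 under ATO, fibroblast markers to 245 to 492 and 644 to 1669, and skeletal muscle markers to 39.1 to 239.5 and 377 to 388. The part of these in the results was not tested. In regressing against water the rho over the mitotic genes was 0.695 and over the S-phase genes -0.23, and with the length offset the same 10 members were called. In progressing against water the offset ended the call of Cenpe, at 0.83 (adjusted p = 0.0575), and added Rfc3 and Cdc20. For both ATO groups it ended those of Cdk4, at -0.92 (adjusted p = 0.0748), and Cenpe, at 0.71 (adjusted p = 0.0691).

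**Figure D4:**
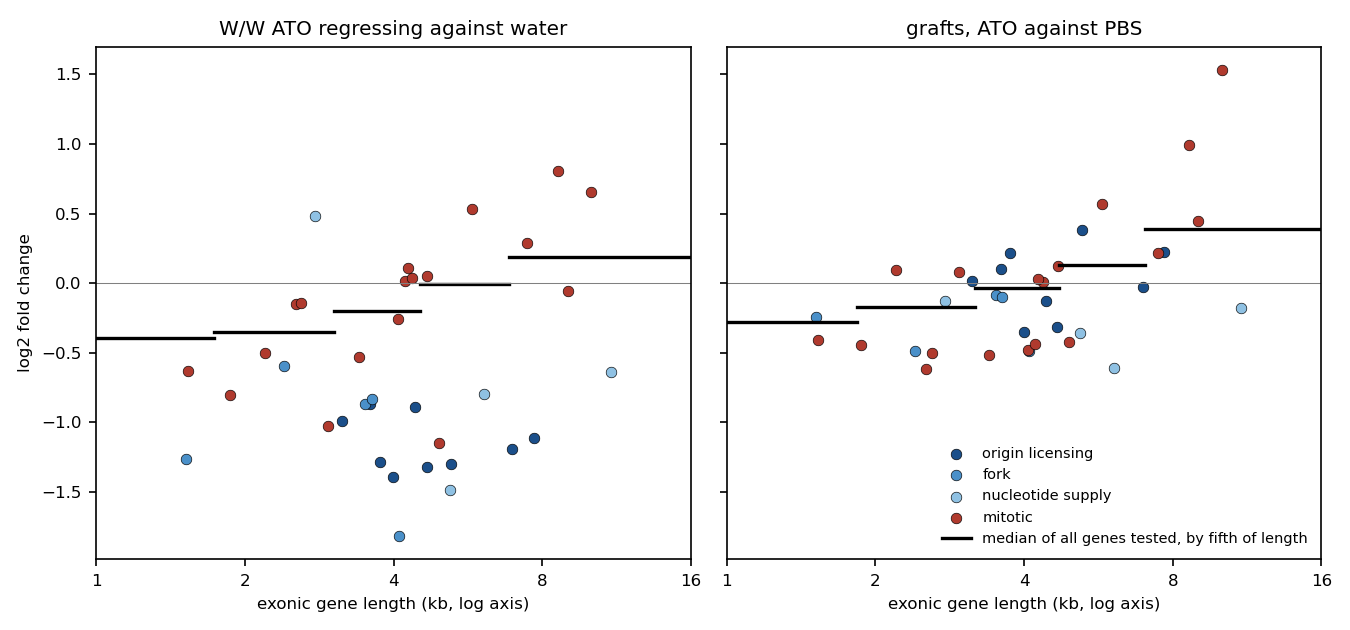
Log2 fold change (y axis) against exonic gene length in kb (x axis, log) for the 18 S-phase and 18 mitotic genes, with black bars for the median of all genes tested in each of 5 length classes. In the grafts the mitotic points lie higher at greater length, as with Ccnb2 (1531 bases, -0.41) and Mki67 (10061 bases, 1.53), and in the regressing comparison the S-phase points lie below the bars at most lengths.

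S-phase minus mitotic was -0.15 in the grafts as a difference of medians, and 0.14 without ATO graft 1, so its sign rests on that library. By library it was -0.04 and -0.18 under PBS and -0.50 and -0.06 under ATO, which overlap. Of the other lists, set beside 7.37% of all genes called higher and 6.57% lower, 4 of the 38 other replication genes were called higher and 1 lower, led by Wdhd1 (1.11 on the log2 scale, from 121 to 263 CPM), Clspn (0.98 on the log2 scale, from 109 to 214 CPM) and Rfc5 (-0.83 on the log2 scale, from 242 to 136 CPM). Of the 48 other mitosis genes 6 were called higher and 1 lower, with Cenpf (1.02 on the log2 scale, from 98.3 to 200.1 CPM), Espl1 (0.99 on the log2 scale, from 65.5 to 130.0 CPM) and Cenpa (-0.88 on the log2 scale, from 209 to 114 CPM). No kinase inhibitor and no gene of the Rb, E2F and Myc list passed, with 3 of each at an unadjusted p under 0.05. Of the checkpoint genes 3 were higher and 0 lower: Atm (1.5 on the log2 scale, from 22.9 to 64.8 CPM), Brca2 (0.99 on the log2 scale, from 40.1 to 79.6 CPM) and Fancd2 (0.91 on the log2 scale, from 33.4 to 62.7 CPM).

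U937 cells under ATO had lower levels of nearly the whole list. With 1 library in each group there is no test, and a log2 ratio of CPM + 1 of at least 1 in size is used as the mark of a large difference. Of the 45 members 42 were lower, 22 past that mark and 0 past it upward, where 8.53% of 13722 genes measured were past it downward and 15.3% upward. The median was -0.93, against 0.13 for all genes measured. Intervals given here cover counting error only. Of the 18 S-phase genes 17 were lower, 9 past the mark. MCM7 went from 384 to 49.3 CPM (-2.94, 95% interval -3.07 to -2.86), the lowest value among the members. AP4M1, which overlaps it, reached at most 9.18 CPM. MCM2 went from 256 to 102 CPM, MCM3 from 489 to 192 CPM and MCM4 from 665 to 329.7 CPM. At the fork, CDC45 went from 61.04 to 25.3 CPM, GINS1 from 83.9 to 38.7 CPM and GINS2 from 42.97 to 13.1 CPM. In nucleotide supply TYMS went from 102 to 25.9 CPM (-1.94, 95% interval -2.13 to -1.82) and RRM2 from 341 to 103 CPM. TYMS overlaps ENOSF1 on the other strand and GINS2 overlaps GSE1.

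All 18 mitotic genes were lower in the ATO library, with a median of -1.18, and 11 were past the mark. MKI67 went from 798 to 242 CPM (-1.72, 95% interval -1.77 to -1.67), the opposite direction to Mki67 in the grafts. PLK1, the polo kinase, went from 184 to 63.9 CPM, AURKB, of the chromosomal passenger complex, from 60.6 to 23.2 CPM and CENPE from 85.4 to 33.2 CPM. TPX2, a spindle assembly factor, went from 943 to 380.2 CPM, TOP2A from 758 to 309 CPM and KIF11, a spindle motor, from 174 to 73.3 CPM. The others past the mark lay between -1.32 (CDC20) and -1.003 (CCNB2), with CCNA2 at -1.29 and CCNB1 at -1.13. The S-phase median was higher than the mitotic median by 0.24, and the mean difference by library was -0.11 under PBS and -0.07 under ATO.

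Outside these 2 roles, cyclin E1 (CCNE1) went from 9.96 to 2.31 CPM (-1.73, 95% interval -2.65 to -1.60) and CDKN1B, the p27 gene, from 111 to 34.8 CPM (-1.64, 95% interval -1.81 to -1.53). The 3 members that were higher were CDC6 at 96.9 to 130.0 CPM, CCNE2 at 25.9 to 32.03 CPM and CDK4 at 169 to 208 CPM, none of them past the mark. CCND2 went from 58.2 to 34.6 CPM and CCND3 from 83.1 to 65.5 CPM, within the mark. In the other lists, 45 of 47 measured mitosis genes were lower, 20 past the mark, with DLGAP5 (89.6 to 22.1 CPM), KIF20A (60.4 to 14.9 CPM) and CENPF (524 to 148 CPM) furthest. Of 38 replication genes 32 were lower, 7 past the mark downward, furthest for POLD2 (192 to 51.6 CPM), and 1 upward. Among the 7 other kinase inhibitors, 2 were past the mark upward and 1 downward. CDKN1A, which encodes p21, went from 20.98 to 167 CPM and CDKN1C from 0.280 to 6.14 CPM. CDKN2C fell from 68.4 to 22.97 CPM. Among 15 checkpoint genes, GADD45A (3.02 to 23.4 CPM) was the 1 past it upward, and 2 were downward, ATR and FANCA. Among 15 measured Rb, E2F and Myc genes, 0 were past it upward and 4 downward: MYC (195 to 9.79 CPM), E2F8, TFDP1 and MYBL2. The shares of all genes measured were 15.3% upward and 8.53% downward. In the same libraries the 10 myeloid markers summed to 2571 CPM under PBS and 763 under ATO, with CD14 at 0 under PBS. The 5 human T-cell markers summed to 0.28 and 0.243 CPM, with CD3D, CD3G and LCK at 0 in both libraries. With TMM factors in place of library totals, 29 members were past the mark downward.

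**Figure D5:**
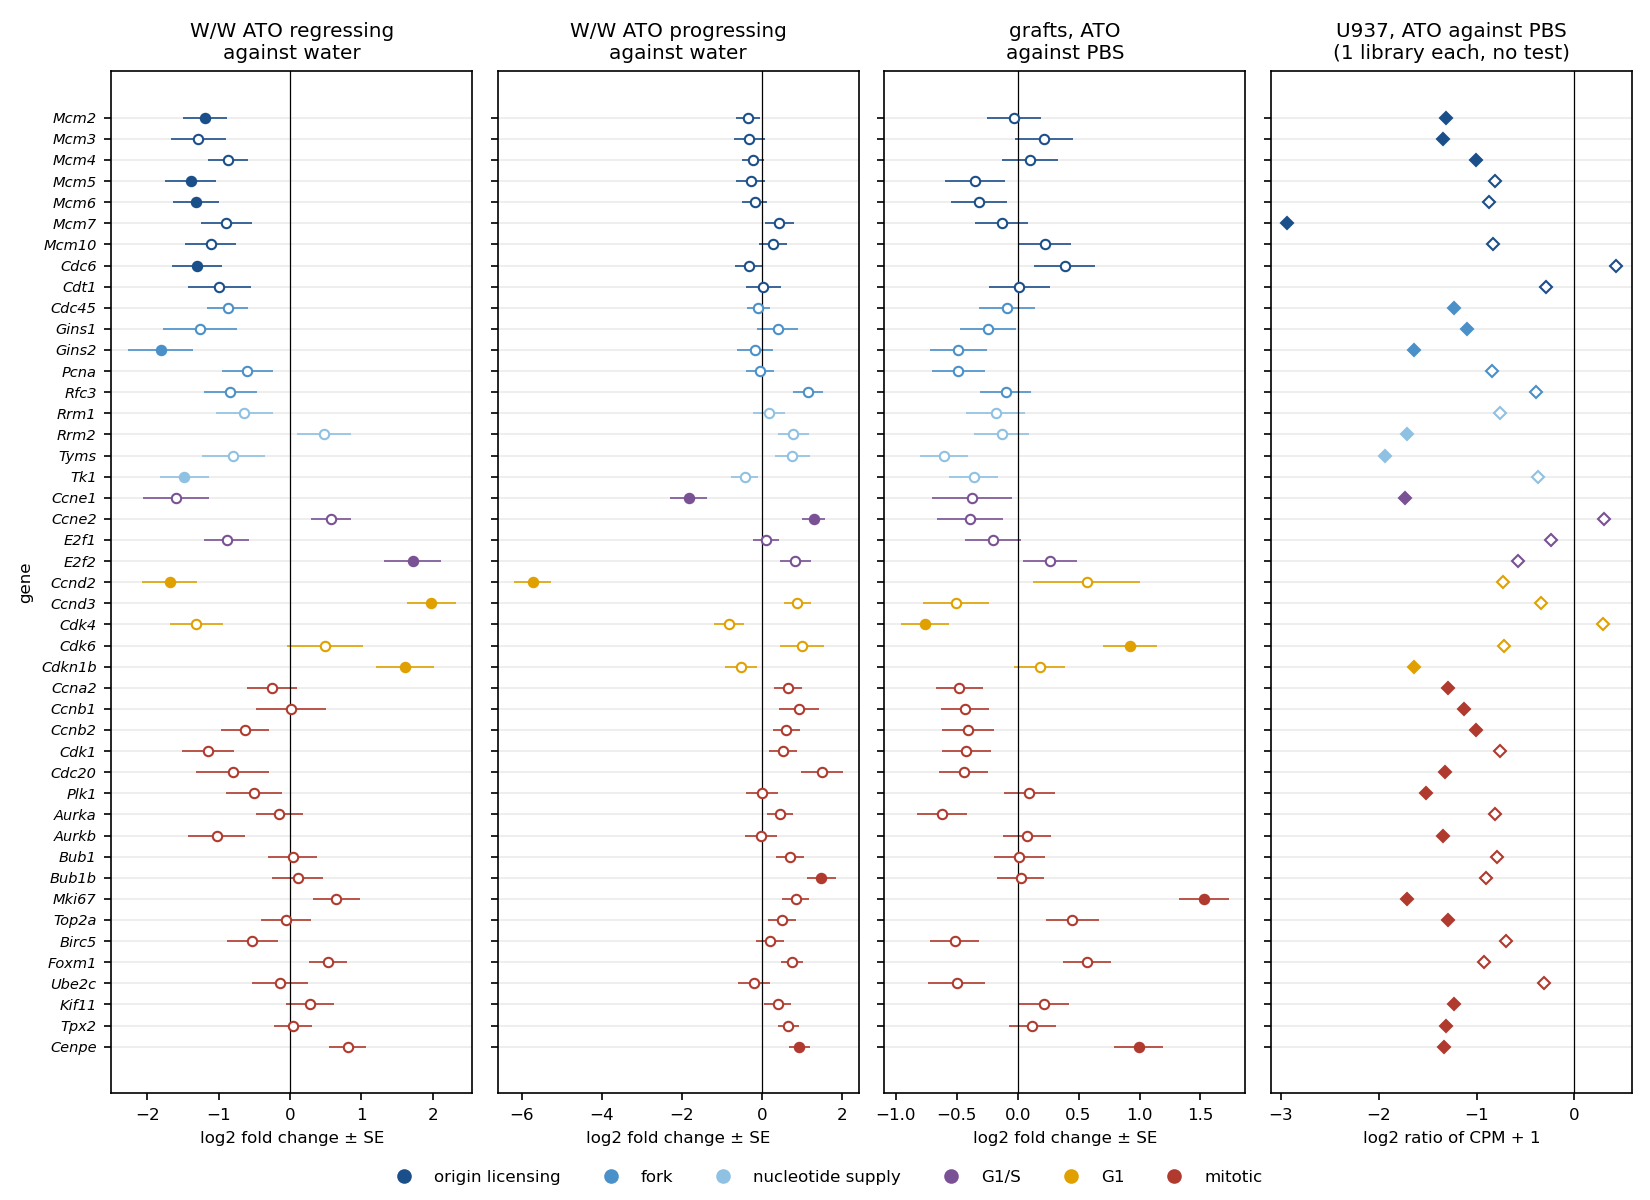
Log2 fold change with SE for each gene (rows, coloured by role) in regressing and progressing W/W thymuses against water and in grafts under ATO against PBS, and the log2 ratio of CPM + 1 in U937, with a separate x scale in each panel. Filled points passed an adjusted p of 0.05 or, in U937, a log2 ratio of 1 in size; the licensing genes lie left of 0 in the first panel and straddle 0 in the progressing and graft panels.

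Side by side, the mouse systems share few called members, and U937 has no test and thus no calls. Its values went both with and against calls in the mice. Ccne1 was called lower in all ATO thymuses together (-1.71) and was -1.73 in U937. Cdkn1b was called higher in regressing against water (1.61) and was -1.64 in U937. Cenpe was called higher in progressing thymuses (0.94) and in ATO grafts (0.99) and was -1.34 in U937. The Cenpe call in the thymuses held in 0 of 6 fits without 1 library. It was also lost with library totals, no filter, a replicate block and the length offset. The same held for the fit of the compared groups alone and without both libraries of low TMM factor. Without 1 graft, the Cenpe value in the grafts ran from 0.84 to 1.12. Cdk4 was called lower in all ATO thymuses together (-1.06) and in ATO grafts (-0.76), and was 0.29 in U937. Neither Cdk4 call held with the length offset or a replicate block, and the one in the thymuses was also lost with RLE scaling (-1.01 (adjusted p = 0.0506)) and limma-voom (-1 (adjusted p = 0.0686)) and held in 1 of 9 fits without 1 library. The Cdk4 call in the grafts was also lost with library totals (-0.57 (adjusted p = 0.068)). The difference between systems was not tested, since they differ in species, tissue and table.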

How the data were processed

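RNA was measured by sequencing in 15 libraries. The deposited tables give whole-number read counts per gene, which the authors made before deposit with FastQC 0.10.1, cutadapt 1.9.1, HISAT2 2.0.1 and the GRCm38 (mm10) build, per the submitters' processing notes; which program counted reads, whether it used strand, and the builds of the C57 and U937 tables are not given in the sources used here. Coordinates are printed from the W/W table alone. The labels name TRIzol and a SMARTER mRNA-Seq kit. The tables also give an exonic length per gene, as deposited.

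The 45 members and the other gene lists were chosen with earlier results of these data known. From the counts, edgeR 4.0.16 (R 4.3.3; filterByExpr, TMM, quasi-likelihood test, Benjamini-Hochberg adjusted p under 0.05 over all genes tested) compared the groups. The 9 W/W libraries entered 1 fit with 3 groups and the 4 grafts another; an SE is the log2 fold change divided by the root of F. The test was tested on simulated data. U937 has 1 library a group, so genes averaging 1 CPM or more were compared by the log2 ratio of CPM + 1, with exact binomial 95% intervals of the count ratio without the pseudocount, which cover counting error only. Named were all members past the test and, in roles with none, those with the largest change; of the other lists, up to 3 past the test. Other genes were named after their values were seen. Alternatives were DESeq2 1.42.0, limma-voom 3.58.1, RLE or library-total scaling, no filter, a replicate block, fits of the compared groups alone, each library left out and, chosen after seeing the data, low-factor libraries left out, crossed graft numbers and a length offset. Total counts of 12800367 to 17872972 per library set the precision of low genes.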

Additional observations from a re-analysis of the deposited data

Results flagged for a closer look

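Cyclin D2 (Ccnd2) had values of opposite sign under ATO in the mouse systems, but only the value in the W/W mice passed the test. All 6 ATO libraries of the W/W mice lay below all 3 water libraries, at a log2 fold change of -3.706 for both outcomes against water. Both ATO grafts lay above both PBS grafts, as was so for 31.7% of all genes tested there. The graft value was 0.57 ± 0.44 (SE) on the log2 scale and did not pass edgeR's test (adjusted p = 0.401). Levels in the grafts were between 3.08 and 5.84 CPM, and those with water in the W/W mice between 214.5 and 370.6 CPM. The difference between the systems was not tested. No group held 4 or more libraries, so no library was examined for its gap to the rest of its group.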

How the results depend on the processing

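With 3 or 2 libraries in a group, leaving out 1 ends many calls. No called member changed direction under any alternative run, and S-phase minus mitotic kept its sign except in the grafts. Over the fits without 1 library, regressing against water called 0 to 3 members higher and 0 to 5 lower (3 and 7 with all), 60 to 1190 genes in all (1396), with S-phase minus mitotic at -0.981 to -0.835. Progressing against water called 0 to 8 members higher and 1 to 2 lower (3 and 2), 907 to 2557 genes (2157), with -0.76 to -0.425 for S-phase minus mitotic. Regressing against progressing called 1 to 2 members higher and 0 to 9 lower (2 and 10), 177 to 2000 genes (2288), with -0.532 to -0.217. Both ATO groups against water called 0 to 4 higher and 1 to 3 lower (4 and 3), 656 to 2153 genes (1968), with -0.797 to -0.683. The grafts gave 1 to 4 higher and 0 to 3 lower (3 and 1), 685 to 2420 genes (2157), with -0.31 to 0.141, positive without ATO graft 1.

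In the order regressing against water, progressing against water, regressing against progressing, both ATO groups and grafts, genes called without a filter on low counts were 2689, 3594, 3621, 3273 and 3274. No filter also gave 2 members higher for both ATO groups and 3 lower in the grafts. DESeq2 called 3354, 3733, 4121 and 3470 genes in the W/W comparisons, 14 members lower in regressing against water, 5 higher in progressing against water and 3 lower in the grafts. Library totals gave 2 members lower in regressing against water, 4 higher in regressing against progressing and 0 lower in the grafts. The limma-voom test gave 1 member lower in progressing against water. Fits of the compared groups alone gave 0 members higher, 1 lower and 882 genes in progressing against water, and 0, 1 and 366 for both ATO groups. Without both low-factor libraries, regressing against water had 4 members lower. Progressing against water then had 7 higher and 1 lower with S-phase minus mitotic at -0.46, regressing against progressing had 4 higher and 3645 genes, and both ATO groups had 1 lower and -0.532. The length offset called 1197 genes in the grafts. In U937 the genes past the mark were 1844 with a pseudocount of 5 and 1881 at a mean of at least 10 CPM. The cause of these moves was not tested.

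Whether replicate numbers pair these samples could not be settled. Deviations from the group mean correlated at -0.124 to 0.136 between same-numbered W/W libraries and at -0.165 to 0.175 between the others. With 3 libraries in a group such deviations sum to 0, so these ranges cannot decide it. A fit with the replicate block gave 4 members lower in regressing against water, 1 lower and 1405 genes in progressing against water, 2 higher and 1230 genes for both ATO groups, and 0 lower and 1350 genes in the grafts. Same-numbered grafts correlated at -0.13 and crossed ones at 0.13, which must mirror each other with 2 libraries in a group. With crossed numbers the replicate block gave 3 members lower and 3298 genes.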
